A study of Oryza sativa with 8 samples.

Results

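The longest gene intervals in the data were those of 18 kb or more. Among the 19182 distinct genes named in at least 1 of the 4 deposited gene tables, 70 had an interval of 18000 bp or more between the first and the last listed base, and these 70 genes are the members described here. Only the length was used to choose them. A gene appears in a table when its interval, which includes the promoter, overlaps a differentially methylated region (DMR) of that comparison, so every member carries at least 1 DMR somewhere, and long genes that carried none cannot be seen.

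The DMRs came from whole-genome bisulfite sequencing of leaf DNA from mature field-grown rice, labelled as shoot tissue. There were 8 libraries, 1 for each combination of line, parent seed and field. The lines were the wild type WYG7 (Wuyugeng7, a japonica cultivar) and Ox1, a single line in the WYG7 background that overexpresses OsNAR2.1, a partner protein of nitrate transporters, from the OsNAR2.1 promoter. Parent seeds had a high (HN) or a low (LN) N content. The study harvested them from parent plants fertilized with 300 kg N/ha (HN) or grown without N fertilizer (LN). Seed N content and the parents' field thus cannot be told apart. The progeny grew in a field with 300 kg N/ha (HN field) or in one without N fertilizer (NN field), both with potassium and phosphate.

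Each comparison set the LN against the HN library of 1 line in 1 field and asks which regions changed methylation with the N content of the parent seed. Hyper-DMRs are read as regions more methylated in LN and hypo-DMRs as regions less methylated in LN, as the study's text describes them, since no reference library is named in the files. In what follows, "under HN" and "under NN" always stand for the field of the progeny, not the parent seed. No 2 comparisons share a library. There were no replicates, so no difference has a replicate error, no test was made, and the 95% intervals given (Wilson for shares, exact Poisson for densities) cover counting error over DMRs or genes only. The lists hold no read depth, methylation level or cytosine context, so the precision of a single DMR is unknown.

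In plants, cytosines are methylated in the CG, CHG and CHH contexts, where H is any base but G. CG methylation is common in the bodies of expressed genes and is copied by MET1, whereas CHG and CHH methylation, kept by chromomethylases and by small RNA-guided DRM2, is mostly found on transposons and repeats. Very long plant genes usually owe their length to long introns, which often hold transposons, and methylation inside such genes can therefore be that of a gene body or that of an inserted repeat. The files give no strand, exon or repeat positions, so these kinds were not separated.

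The intervals of the members ran from 18096 to 58094 bp, with a median of 20577.5 bp against 3705.5 bp over all listed genes, and 18 of them were 25 kb or longer. Together they covered 1.59 Mb on 11 of the 12 chromosomes of IRGSP-1.0. Chromosome 1 held 11 members and chromosome 11 held 10, whereas chromosome 10 held 0 of its 1365 listed genes. No 2 members overlapped each other, and 12 overlapped a shorter listed gene, so that a DMR there counts for both genes. The members just inside the limit were LOC_Os02g14929, with 18096 bp and 1 DMR in all, and LOC_Os01g12950, with 18122 bp and 13 DMRs. Just outside it lay LOC_Os08g34060, with 17989 bp and 1 DMR, and LOC_Os03g52594, with 17955 bp and 7 DMRs.

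More of the members were listed in each comparison than of all genes. Under HN, WYG7 listed 54 of the 70 members, or 77.1% (66.0% to 85.4%), against 56% of all 19182 genes. Ox1 under HN listed 46 members, 65.7% (54.0% to 75.8%), against 54.9%. WYG7 under NN listed 53, 75.7% (64.5% to 84.2%), against 57%. Ox1 under NN listed 51, 72.9% (61.5% to 81.9%), against 40.9%. A longer interval has more room for a DMR, and the share listed rose with length over the classes shown in the plot of length classes, except that Ox1 under NN listed 50.5% of genes of 6 to 12 kb and 47.4% of those of 12 to 18 kb. Against the next shorter class, 12 to 18 kb with 302 genes, the members' interval lay far above the class's share in Ox1 under NN and just above it, 65.9%, in WYG7 under HN. The class shares of 64.9% in Ox1 under HN and 67.9% in WYG7 under NN lay within the members' intervals.

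**Figure D1:**
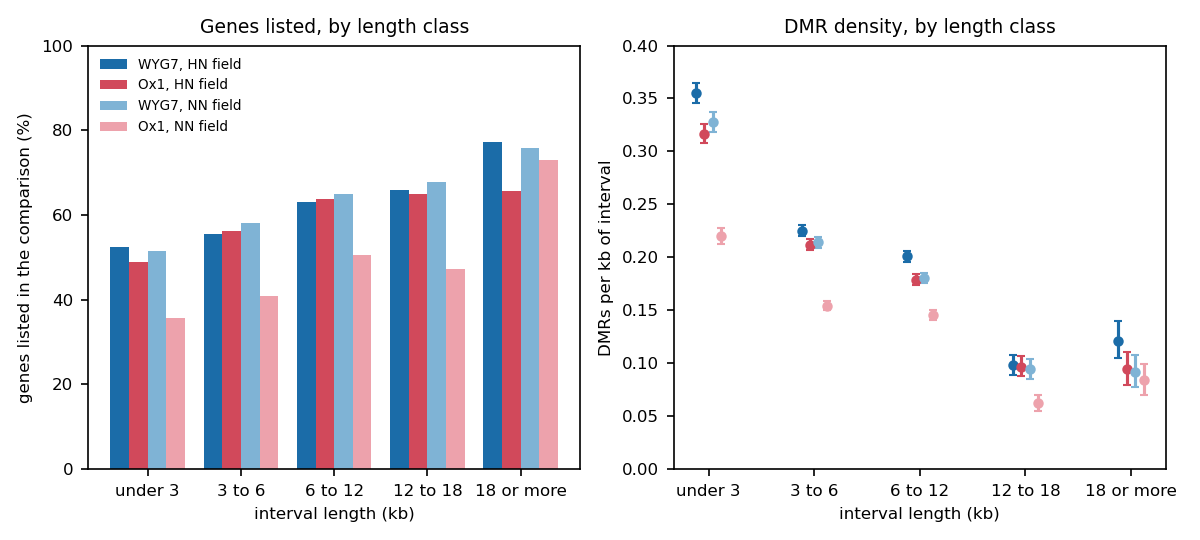
Left, percent of the genes of each length class that each of the 4 comparisons lists, over all 19182 genes (bars start at 0). Right, DMRs per kb of interval in the same classes with exact Poisson 95% intervals. The 70 intervals of 18 kb or more have listed shares between 65.7% and 77.1% and densities between 0.0840 and 0.121 per kb.

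Per kb, the members held fewer DMRs than listed genes under 12 kb, but not fewer than those of 12 to 18 kb in every comparison. WYG7 had 193 DMRs in the members under HN, which is 0.121 per kb (0.105 to 0.139), and 146 under NN, which is 0.0916 per kb (0.0773 to 0.108). Ox1 had 150 under HN, 0.0941 per kb (0.0796 to 0.110), and 134 under NN, 0.0840 per kb (0.0704 to 0.0995). Over all listed genes the densities were 0.232 and 0.214 for WYG7 and 0.211 and 0.157 for Ox1 under HN and NN. A short interval is only listed if it has a DMR, which sets a floor on its density. How much of the contrast comes from this was not tested. Genes of 12 to 18 kb had 0.0983 and 0.0941 per kb for WYG7 and 0.0969 and 0.0623 for Ox1. These values lay below the members' intervals in WYG7 under HN and in Ox1 under NN and within them in the others. The class's own interval, 0.0891 to 0.108, overlapped the members' in WYG7 under HN, and that of 0.0551 to 0.0703 ended just below theirs in Ox1 under NN. Such intervals take DMRs as independent, although a few members held many of them, so they are too narrow for a difference between sets of genes. Without the 5 members with the most DMRs, the densities were 0.0924 in WYG7 under HN and 0.0614 in Ox1 under NN. These 5 were picked for their many DMRs, and no such genes were left out of the class of 12 to 18 kb. These lower values therefore cannot show what the difference rests on. The members too had to carry a DMR to be listed. Over the whole genome, which has no such condition, the densities were lower than in the members, with 0.0774 and 0.0705 per kb for WYG7 and 0.0685 and 0.0530 for Ox1. Without the same 5 members, the members' densities were 0.0674 in WYG7 under NN and 0.0681 in Ox1 under HN. Both were below the genome's, from which nothing was left out. The members carried between 0.555% and 0.678% of all DMRs of a list. Single DMRs in members had a median length between 213 and 248 bp, close to the 225 to 237 bp of the other DMRs.

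Within the members, the DMRs were unevenly spread. Summed over the 4 comparisons there were 623 DMRs, and the 5 members with the most held 194 of them, 31.1%, while the 10 with the most held 301, 48.3%. The median member had 5 DMRs in all, and 9 members had 1. Without the first 5 the densities of the 4 comparisons were between 0.0614 and 0.0924 per kb. Longer members did not clearly rank higher in DMRs per kb, as its Spearman correlation with length over the 70 members was 0.10. They tended to hold more DMRs, with a correlation of 0.31 between length and the number of DMRs. The density of a member in 1 comparison went with its density in another, with Spearman correlations between 0.38 and 0.56 over the 70 members. These are descriptions over genes that share the 8 libraries and the condition of being listed.

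**Figure D2:**
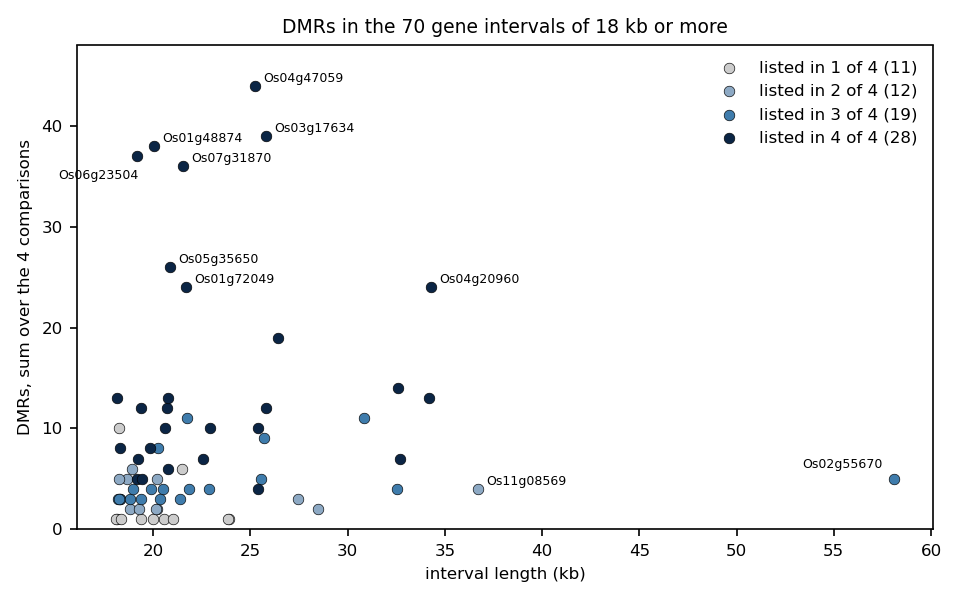
Number of DMRs summed over the 4 comparisons (y axis) against interval length in kb (x axis), 1 point per member, shaded by the number of comparisons that list it. Members with 24 or more DMRs lie between 19 and 35 kb, and the longest member, at 58.1 kb, has 5.

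The member with the most DMRs was LOC_Os04g47059, on chromosome 4 from 27915598 to 27940824, with 25227 bp. It held 10 DMRs in WYG7 and 13 in Ox1 under HN, and 12 and 9 under NN. Both directions were present in every comparison, as 5 hyper and 5 hypo in WYG7 under HN, 7 and 6 in Ox1 under HN, 6 and 6 in WYG7 under NN, and 2 and 7 in Ox1 under NN. The 44 DMRs fell on 17 separate sites and together covered 40.1% of the interval, the highest share of any member. It also held the longest member DMRs under NN, which were hypo in both lines, with 1294 bp in WYG7 and 1298 bp in Ox1. These 2 started at 9615 and 4982 bp from the interval start and did not overlap.

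In LOC_Os03g17634 (chromosome 3, 25778 bp) the counts were 14 and 12 in WYG7 and 9 and 4 in Ox1 under HN and NN. Hyper-DMRs were the majority under HN, with 9 of 14 in WYG7 and 8 of 9 in Ox1, and in WYG7 under NN, with 8 of 12, whereas Ox1 under NN had 1 of 4. All of its DMRs lay between 4980 and 17682 bp from the start, which left the last 8.1 kb free.

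LOC_Os06g23504 (chromosome 6, 19190 bp) and LOC_Os01g48874 (chromosome 1, 20015 bp) had the highest densities over the 4 comparisons together, 1.93 and 1.90 DMRs per kb, where the median member had 0.253. LOC_Os06g23504 had 11 DMRs in each line under HN and 8 in WYG7 and 7 in Ox1 under NN. Its hyper-DMRs numbered 5 of 11 in WYG7 and 9 of 11 in Ox1 under HN, and 4 of 8 and 1 of 7 under NN. LOC_Os01g48874 had 9 and 7 DMRs in WYG7 and 11 and 11 in Ox1. Here the hyper-DMRs in Ox1 went from 8 of 11 under HN to 3 of 11 under NN. LOC_Os07g31870 (chromosome 7, 21526 bp) likewise had at least 5 DMRs in each of the 4 comparisons, with 12 and 7 in WYG7 and 5 and 12 in Ox1, and it held the longest member DMR of Ox1 under HN, a hyper-DMR of 927 bp. LOC_Os05g35650 (chromosome 5, 20882 bp) also reached 5 in each, with 6 and 9 in WYG7 and 5 and 6 in Ox1.

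The counts were lower in the other members with the most DMRs among those listed throughout. LOC_Os01g72049 had 7 and 4 in WYG7 and 5 and 8 in Ox1, and LOC_Os04g20960 had 7 and 7 in WYG7 and 6 and 4 in Ox1. In LOC_Os04g20960 (chromosome 4, 34279 bp) all 24 DMRs of the 4 comparisons lay between 21572 and 29140 bp from the start, so that 1 stretch of 22.1% of the interval held all of them. LOC_Os01g08890 (26395 bp) had 5 and 4 in WYG7 and 8 and 2 in Ox1, also with none in its first 11.4 kb. LOC_Os11g27329 (32581 bp) had 4 and 4 in WYG7 and 4 and 2 in Ox1.

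**Figure D3:**
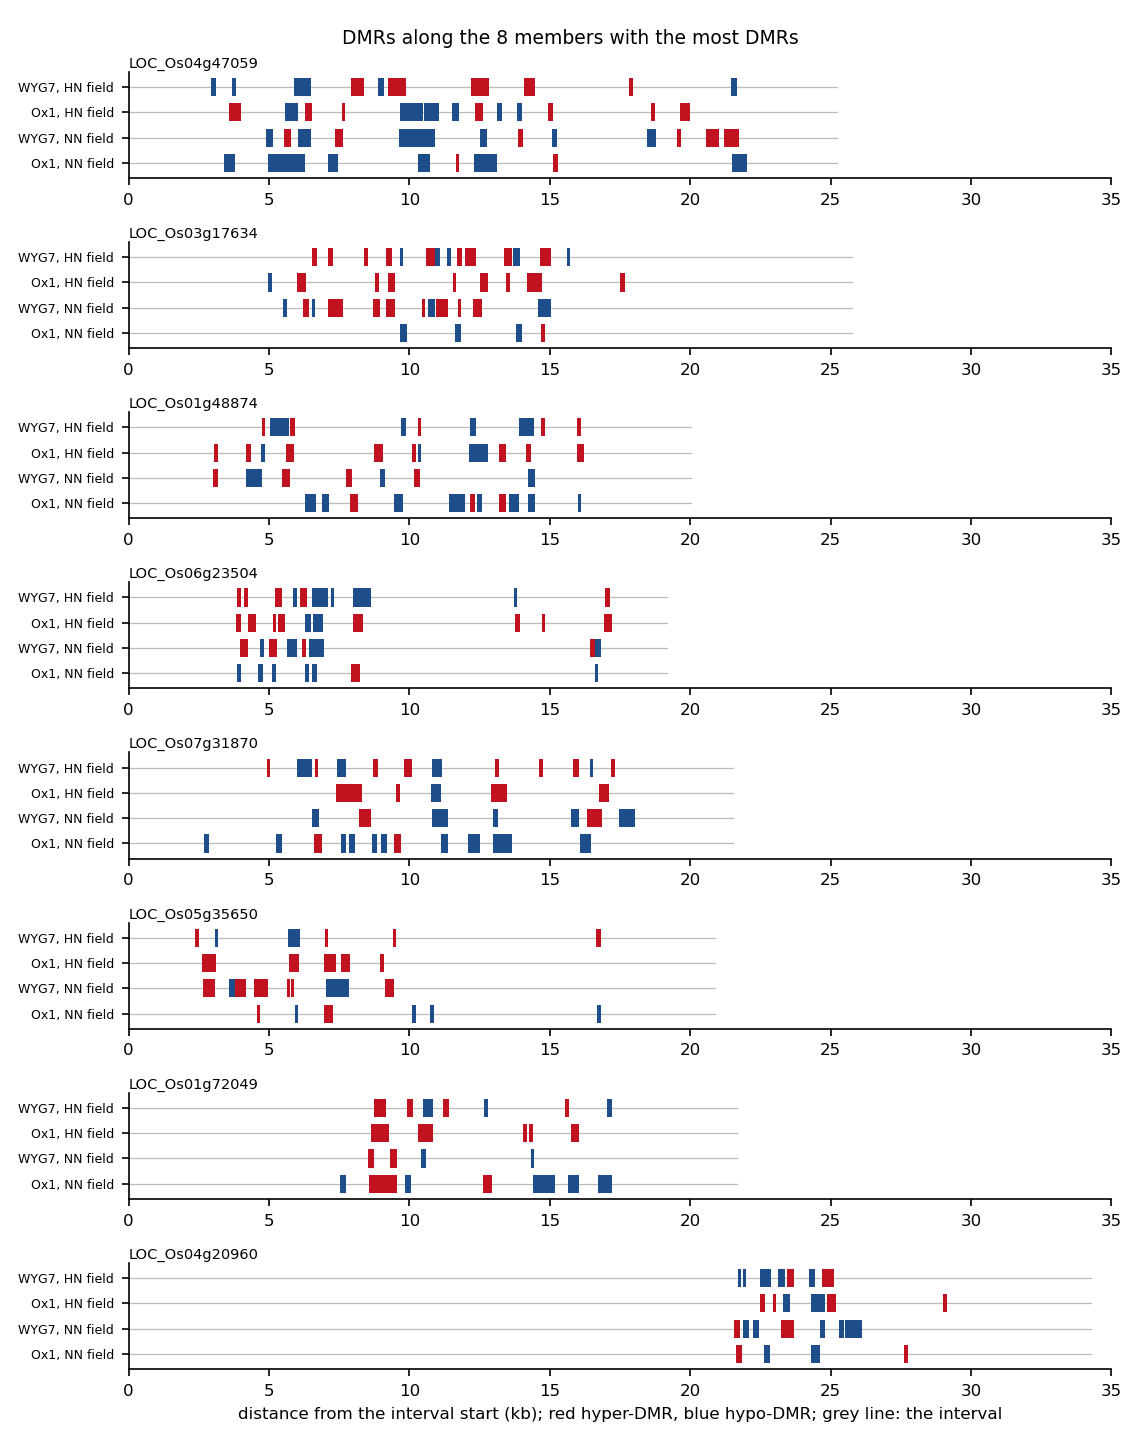
Each panel is 1 of the 8 members with the most DMRs, drawn from 0 at the interval start in kb (x axis), with a row for each comparison. Red blocks are hyper-DMRs and blue blocks hypo-DMRs, to scale, and the grey line is the interval. Most rows hold DMRs of both directions, the outer parts of the intervals are mostly empty, and in LOC_Os04g20960 all 24 DMRs lie between 21572 and 29140 bp.

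The 5 longest members had between 4 and 24 DMRs in all. The longest, LOC_Os02g55670 (chromosome 2, from 34089729 to 34147822, 58094 bp), had 2 DMRs in WYG7 in each field, 0 in Ox1 under HN and 1 in Ox1 under NN. Only 1.88% of it lay in a DMR of any comparison, and it overlaps 3 shorter listed genes. LOC_Os11g08569 (36678 bp) had 3 DMRs in WYG7 under HN, 1 in Ox1 under NN and 0 in the other comparisons. LOC_Os05g18604 (34199 bp) had 3 and 1 in WYG7 and 3 and 6 in Ox1. LOC_Os06g28820 (32712 bp) had 1 in WYG7 in each field and 3 and 2 in Ox1. At the other end, the lowest densities belonged to LOC_Os09g19229 (23879 bp), LOC_Os11g34660 (23839 bp) and LOC_Os08g21590 (21040 bp), which had 1 DMR each. The 18 members of 25 kb or more had between 0.0759 and 0.125 DMRs per kb and the 52 shorter ones between 0.0845 and 0.119.

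The DMRs were sparse near the ends of the long intervals. Each interval was cut into 10 bins of equal length, and under an even spread each bin would hold 10% of the DMRs. A DMR was placed by the middle of its part inside the interval. The first and the last bin together held 12 of the 193 DMRs in WYG7 under HN, 6.22% (3.59% to 10.6%), and 10 of 150 in Ox1 under HN, 6.67% (3.66% to 11.8%). Under NN they held 7 of 146 in WYG7, 4.79% (2.34% to 9.57%), and 10 of 134 in Ox1, 7.46% (4.10% to 13.2%). Over all listed genes these 2 bins held between 21.2% and 22.8% of the DMRs, and in the class of 12 to 18 kb between 12.7% and 18.5%. Without the 5 members with the most DMRs, the share of the outer bins was higher in each comparison, between 7% and 10.99%. With the limit at 15 kb it was 10.7% and 11.3% in WYG7 under HN and NN and 11.3% and 9.25% in Ox1, and with the limit at 25 kb it was 11.9% in Ox1 under NN.

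Counted over the 4 comparisons, the bins in order of rising coordinates held 21, 30, 85, 84, 100, 82, 65, 72, 66 and 18 DMRs. The second bin was thus nearly as sparse as the outermost ones, while the ninth was not. Strand is not given, so neither end can be called the promoter end. In distance from the nearer end, the density per comparison was 0.0411 per kb within 1 kb, 0.0179 between 1 and 2 kb, 0.0661 between 2 and 4 kb, 0.116 between 4 and 6 kb and 0.121 between 6 and 9 kb. The density was thus lowest just inside the outermost kb. The class of 12 to 18 kb had the same dip at 1 to 2 kb but a shallower one, with 0.0786, 0.0579, 0.0853 and 0.0960 per kb over the first 4 of these bins. In single comparisons, the outer 2 kb held 0.0357 DMRs per kb against 0.139 further in for WYG7 under HN, and 0.025 against 0.106 under NN. For Ox1 the values were 0.0286 against 0.108 and 0.0286 against 0.0959.

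**Figure D4:**
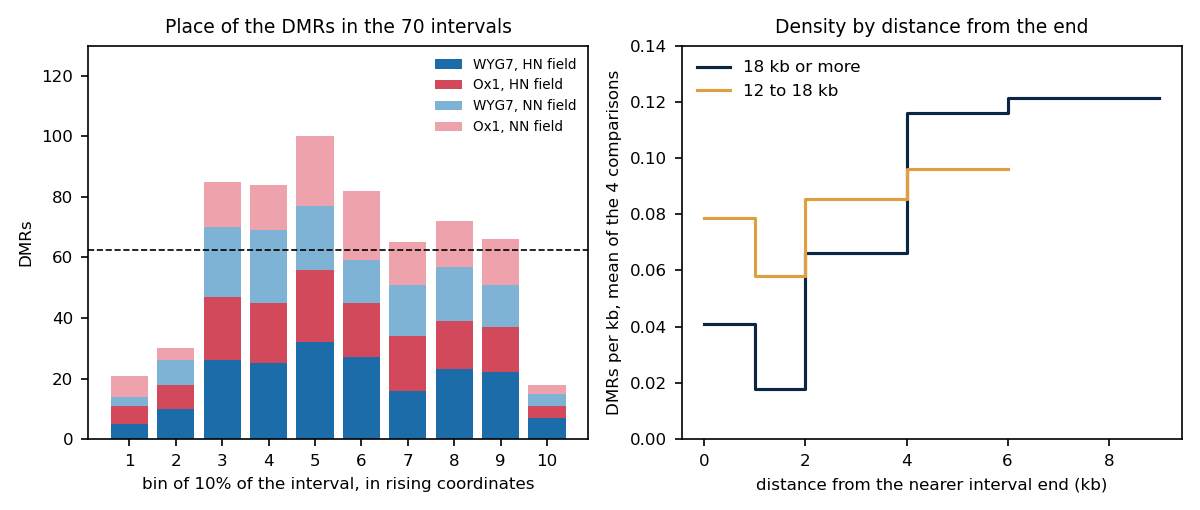
Left, number of DMRs in each of 10 equal bins of the 70 intervals, in order of rising coordinates, stacked by comparison (the dashed line is an even spread of the 623 DMRs). Right, DMRs per kb, averaged over the 4 comparisons, by distance in kb from the nearer interval end, for the members and for genes of 12 to 18 kb. The first, the second and the last bin hold 21, 30 and 18 DMRs, and the density in members is lowest between 1 and 2 kb from an end.

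Away from the ends, DMRs lay in loose groups with wide gaps. The median gap between neighbouring DMRs of 1 comparison inside a member was 892 bp for WYG7 under HN, 901 bp for WYG7 under NN, 986.5 bp for Ox1 under HN and 1038 bp for Ox1 under NN. Over all listed genes it was 451.5 to 577.5 bp, where short intervals leave no room for wide gaps, and in the class of 12 to 18 kb it was 733.5 to 1197.5 bp. Without the 5 members with the most DMRs, the median gap in Ox1 under NN was 2233 bp, and in the other comparisons it was between 937 and 1080 bp. With the DMRs of all 4 comparisons laid on each other, the longest stretch without a DMR was 10.1 kb in the median member and ran from 3.2 kb in LOC_Os04g47059 to 25.2 kb in LOC_Os11g08569. The share of a member lying in any DMR had a median of 5.02% and ran from 0.575% in LOC_Os02g14929 to 40.1%.

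In direction, the members' intervals included the values of the whole lists, but in WYG7 under NN not the values over listed genes. The hyper share of the members' DMRs was 51.3% in WYG7 under HN (44.3% to 58.3%) against 45.9% over all DMRs of that list. In WYG7 under NN it was 56.8% (48.7% to 64.6%) against 64.5%. In Ox1 it was 76.0% under HN (68.6% to 82.1%) against 75.4%, and 31.3% under NN (24.1% to 39.6%) against 33.7%. In each comparison the value of the whole list lay within the members' interval. Ox1 thus had mostly hyper-DMRs under HN and mostly hypo-DMRs under NN in these genes too, a difference of 44.7 percentage points that was not tested.

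**Figure D5:**
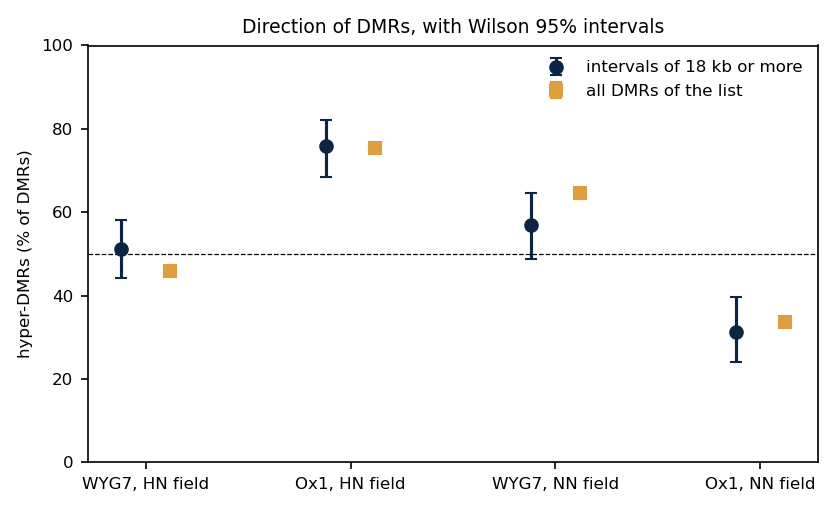
Hyper-DMRs as a percent of DMRs (y axis) in each comparison (x axis), for the 70 members (circles) and for all DMRs of the list (squares), with Wilson 95% intervals and a dashed line at 50%. The members have 51.3%, 76.0%, 56.8% and 31.3%, each with an interval that includes the value of the whole list.

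A hyper-DMR was present in 35 members in WYG7 under HN, 50%, against 29.6% of all genes, and a hypo-DMR in 44, 62.9%, against 37%. In Ox1 under HN, 40 members had a hyper-DMR, 57.1% against 46.8%, and 22 a hypo-DMR, 31.4% against 16.9%. In WYG7 under NN, 39 members had a hyper-DMR, 55.7% against 43.5%, and 32 a hypo-DMR, 45.7% against 24.4%. In Ox1 under NN, 30 members had a hyper-DMR, 42.9% against 17.2%, and 42 a hypo-DMR, 60.0% against 30.8%. All 8 shares were above those of all genes. Beside genes of 12 to 18 kb they were not always higher. A hyper-DMR was present in 39.7% of that class in WYG7 under HN, 55.6% in Ox1 under HN, 57.3% in WYG7 under NN and 21.9% in Ox1 under NN, and a hypo-DMR in 44.4%, 26.2%, 30.5% and 35.4% in the same order. Of the members with at least 2 DMRs in a comparison, both directions were found in 25 of 36 in WYG7 under HN, 16 of 28 in Ox1 under HN, 18 of 24 in WYG7 under NN and 21 of 28 in Ox1 under NN. These are 69.4%, 57.1%, 75% and 75% of such members, against 62.5%, 50.5%, 65.2% and 51.7% of genes of 12 to 18 kb and 51.8%, 46.3%, 57.6% and 56.4% of all genes with at least 2 DMRs. The members with at least 2 also held more DMRs each, with means between 3.96 and 4.88 against 2.81 to 3.06 over all genes.

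Neighbouring DMRs in a member had the same direction about as often as the hyper share alone would give. In WYG7 this was 70 of 139 neighbouring pairs under HN, 50.4% (42.2% to 58.5%) against 50.03% from the share, and 43 of 93 under NN, 46.2% (36.5% to 56.3%) against 50.9%. In Ox1 it was 67 of 104 under HN, 64.4% (54.9% to 73.0%) against 63.5%, and 43 of 83 under NN, 51.8% (41.2% to 62.2%) against 57.0%. Hyper- and hypo-DMRs were thus neither clearly grouped nor clearly alternating along the members. Outside the dense windows, in which WYG7 under HN had many more DMRs than usual and which hold 3 members, the share in WYG7 under HN was 44.8%, and without the 5 members with the most DMRs that in WYG7 under NN was 59.6% (46.1% to 71.8%). Over all listed genes, neighbours in WYG7 had the same direction in 59.5% of pairs under HN against 50.5% from the share, and in 52.9% against 54.7% under NN. In Ox1 they had it in 61.9% against 64.5% under HN and in 58.1% against 57.7% under NN.

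Over the 4 comparisons together, 50 members had DMRs of both directions, 10 had hyper-DMRs alone and 10 had hypo-DMRs alone. With at least 4 DMRs, all of 1 direction, there were 4 members, all hyper. These counts have no value over all genes beside them, so they do not set the members apart. LOC_Os09g17329 (chromosome 9, from 10604980 to 10623218, 18239 bp) had 10 hyper-DMRs in WYG7 under HN and 0 in the other comparisons. They included the longest member DMR of that comparison, with 1117 bp, and covered 27.7% of the interval. LOC_Os09g18159 (chromosome 9, from 11123332 to 11144798, 21467 bp) had 6 hyper-DMRs in the same comparison and 0 in the others. Both lie in windows of 500 kb in which WYG7 under HN had more than 3 times its median of 33 DMRs, 22 windows in all. Their DMRs thus lay in a wider stretch rich in DMRs. The other member in such windows, LOC_Os09g19229, had 0 DMRs in WYG7 under HN, and its only DMR was a hypo-DMR of Ox1 under NN. Without the 3 members in such windows, the hyper share in WYG7 under HN was 46.9%. The other members of 1 direction were LOC_Os11g04520 (chromosome 11, 20767 bp), with 1 and 3 hyper-DMRs in WYG7 and 1 and 1 in Ox1 under HN and NN, and LOC_Os08g12020 (chromosome 8, 18259 bp), with 3 in Ox1 under HN and 2 in WYG7 under NN.

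In 6 members with at least 2 DMRs in each of 2 comparisons, the DMRs were all hyper in 1 and all hypo in the other. The share of such genes over all listed genes is not given here, so the count does not set the members apart. LOC_Os01g12950 (chromosome 1, from 7196022 to 7214143) had 3 hypo-DMRs in WYG7 and 8 hyper-DMRs in Ox1 under HN, and 1 hyper-DMR in WYG7 and 1 hypo-DMR in Ox1 under NN. Most of them lay close together, and at 7212103 to 7212658 the hypo-DMRs of WYG7 under HN and of Ox1 under NN overlapped a hyper-DMR of Ox1 under HN. LOC_Os01g22954 (20207 bp) had 3 hypo-DMRs in WYG7 and 2 hyper-DMRs in Ox1 under HN and 0 under NN, and 1 pair of them overlapped. LOC_Os11g35710 (18288 bp) had 2 hypo-DMRs in WYG7 and 2 hyper-DMRs in Ox1 under HN, then 2 hyper and 1 hypo in WYG7 and 1 hypo in Ox1 under NN.

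The remaining members of this kind had their hypo-DMRs in Ox1 under NN. LOC_Os06g28820 had 3 hyper-DMRs in Ox1 under HN and 2 hypo-DMRs under NN, with 1 hyper-DMR in each WYG7 comparison. LOC_Os11g27329 had 4 hyper-DMRs in Ox1 under HN, 4 in WYG7 under NN, 2 hypo-DMRs in Ox1 under NN, and 2 of each direction in WYG7 under HN. At the start of its interval, DMRs of Ox1 under HN and WYG7 under NN, both hyper, overlapped a hypo-DMR of Ox1 under NN. LOC_Os09g09000 (19207 bp) had 2 hyper-DMRs in WYG7 under HN, 1 of each direction in Ox1 under HN, 1 hyper-DMR in WYG7 under NN and 2 hypo-DMRs in Ox1 under NN.

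Most members recurred between comparisons. Of the 70, 11 were listed in 1 comparison, 12 in 2, 19 in 3 and 28 in all 4, so that 40.0% were listed throughout, against 15.3% of all genes and 28.5% of genes of 12 to 18 kb. Of the 19 members missing from 1 comparison, 8 were missing from Ox1 under HN, 5 from Ox1 under NN, 4 from WYG7 under NN and 2 from WYG7 under HN. This split has no value over all genes beside it, so it does not set the members apart.

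The DMRs themselves also recurred at the same place. Of the DMRs in members, those that overlapped a DMR of another comparison by at least 1 bp were 114 of 193 in WYG7 under HN, 59.1% (52.02% to 65.8%), against 58.1% of all DMRs of that list. They were 111 of 150 in Ox1 under HN, 74.0% (66.4% to 80.4%), against 62.5%, and 106 of 146 in WYG7 under NN, 72.6% (64.9% to 79.2%), against 61.3%. In Ox1 under NN they were 99 of 134, 73.9% (65.9% to 80.6%), against 69.9%. Over the DMRs in all listed intervals, the shares were 60.7%, 63.0%, 62.4% and 72.3% in the same order. The members' intervals thus lay above the value of the whole list in Ox1 under HN and in WYG7 under NN. Without the 5 members with the most DMRs, the shares there were 64.4% and 65%. With DMRs of 200 bp or more alone, the share in WYG7 under NN was 52.6%, against 53.1% over all such DMRs, and that in Ox1 under HN 75.6% against 55.7%.

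Overlapping DMRs of the 4 comparisons were joined into 335 sites in the members, of which 187 had a DMR in 1 comparison, 83 in 2, 42 in 3 and 23 in all 4. The joining ran in chains, so DMRs of the same site need not all overlap each other. The direction was the same throughout at 40 of the 83 sites with 2 comparisons, 4 of the 42 with 3, and 3 of the 23 with 4. These are 48.2% (37.8% to 58.8%), 9.52% (3.77% to 22.1%) and 13.04% (4.54% to 32.1%), against 50.1%, 20.2% and 6.25% of the sites joined in the same way over all DMRs, and the last 2 rest on few sites. The 3 were a hyper site of LOC_Os01g72049 on chromosome 1 from 41789827 to 41790875, a hyper site of LOC_Os11g04520 on chromosome 11 from 1910313 to 1911055, and a hypo site of LOC_Os07g31870 on chromosome 7 from 18942809 to 18943410. In the site of LOC_Os01g72049, the DMR of WYG7 under HN overlapped no DMR of WYG7 under NN. The 23 sites belonged to 14 members, with 4 in LOC_Os07g31870 and 3 each in LOC_Os04g47059 and LOC_Os06g23504. At 3 sites the order was hyper in all but Ox1 under NN, and at 3 others hyper in Ox1 under HN and WYG7 under NN and hypo in the other 2 comparisons.

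Pair by pair, the share of overlapping DMRs with the same direction was set beside the value that the hyper shares alone would give. The highest share was 57.5%, 42 of 73 pairs, between Ox1 under HN and WYG7 under NN, where independence of the 2 directions gives 50.7% and all DMRs of these lists gave 57.4%. The lowest was 39.6%, 21 of 53, between the 2 fields of Ox1, against 42.9% under independence and 44.8% over all DMRs. The 2 lines shared the direction in 47.9% of 71 pairs under HN, against 48.4%, and in 54.4% of 57 pairs under NN, against 51.6%. In WYG7 between the fields it was 50% of 62 pairs, against 49.8%, and between WYG7 under HN and Ox1 under NN it was 54.7% of 64 pairs, against 53.3%. These few pairs per comparison set wide limits, as the Wilson interval of the highest share ran from 46.1% to 68.2%.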

How the data were processed

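Reads of 8 libraries were trimmed by the authors and aligned to IRGSP-1.0 with Bismark 0.9.0, per the labels and the study's methods. SMART was used to call DMRs for LN against HN parent seed, within each line and field, under minimum limits on coverage, cytosines, length and methylation difference. The deposited lists are the authors' own comparisons and hold other values than signals, namely positions in bp, directions and, in the gene tables, 1 interval with promoter and 1 MSU locus identifier per gene. No read depth is given, and the annotation version is not given in the sources used here. All columns were assigned to a comparison.

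Positions were read as 1-based with both ends included (shortest DMR 100 bp). A DMR was assigned to an interval from 52 bp of overlap, the smallest found among listed genes, where the largest among unlisted ones was 51 bp. Python 3.11.15, numpy 2.4.6, pandas 2.3.3, scipy 1.17.1 and matplotlib 3.10.9 were used, and the overlap functions were tested on simulated intervals. The members, lists and named genes were chosen with earlier results of these data known. Named genes were the 5 longest, the 10 with the most DMRs among those listed in all 4 comparisons, the 3 highest and 3 lowest per kb, those with at least 4 DMRs of 1 direction, those with at least 2 DMRs of opposite directions in 2 comparisons, those with the longest DMR of a comparison, and the 2 nearest each side of the limit. Alternatives were other length limits, overlaps and DMR lengths, merged or weighted DMRs, and leaving members out. The reference table used here is of another assembly and matched 0 of the 70 members, so gene products, strand, exons, sequences and planned groups by product were not analysed here.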

Additional observations from a re-analysis of the deposited data

Results flagged for a closer look

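In Ox1, the hyper share of DMRs in the members fell by 44.7 percentage points between the HN and NN fields, from 76.0% to 31.3%. The 2 comparisons use different libraries, 1 per condition, and the change was not tested.

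In 6 members every DMR was hyper in 1 comparison and hypo in another, with at least 2 DMRs in each. These were LOC_Os11g27329 with 14 DMRs over the 4 comparisons, LOC_Os01g12950 with 13, LOC_Os11g35710 with 8, LOC_Os06g28820 and LOC_Os09g09000 with 7 each, and LOC_Os01g22954 with 5. The opposite directions were WYG7 against Ox1 under HN in LOC_Os01g12950, LOC_Os01g22954 and LOC_Os11g35710. They were the HN against the NN field of Ox1 in LOC_Os06g28820 and LOC_Os11g27329, and WYG7 under HN against Ox1 under NN in LOC_Os09g09000. In LOC_Os11g27329 they were also WYG7 against Ox1 under NN. None of these differences was tested, and no count over all genes was set beside them.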

How the results depend on the processing

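Of 198 values of 21 results recomputed under 13 alternatives, 174 stayed within the limits set for them, 24 moved and 0 reversed. Of the 174, 21 came from reducing overlapping members, which could change nothing because no members overlap. Leaving out the members in dense windows removed no DMR of Ox1 under HN or of WYG7 under NN. The tally therefore overstates how far the results were tried. With intervals of 15 kb or more, the genes listed numbered 108, 103, 114 and 98 in WYG7 and Ox1 under HN and WYG7 and Ox1 under NN, with 57 in all 4, and the first and the last bin held 10.7% and 11.3% of the DMRs of WYG7 under HN and NN and 11.3% of those of Ox1 under HN. With 25 kb or more, 17, 14, 16 and 14 were listed and 10 in all 4, these bins held 11.9% of the DMRs of Ox1 under NN, and 81.7% of the DMRs of Ox1 under HN recurred at the same place. These counts follow from the number of genes. With DMRs of 200 bp or more, densities were 0.0659, 0.0514, 0.0608 and 0.0483 per kb, and 18 members were listed in all 4. Recurrence at the same place was then 52.6% in WYG7 and 57.1% in Ox1 under NN, against 53.1% and 62.2% over all such DMRs. Requiring an overlap of 50% of the shorter DMR gave a recurrence of 51.8% and 60.3% in WYG7 under HN and NN and 63.3% in Ox1 under HN. Over all DMRs of these lists the same rule gave 50.5%, 52.7% and 54.2%. Without the 5 members with the most DMRs, an alternative chosen after seeing the data, the members' recurrence was 64.4% in Ox1 under HN. Gaps between DMRs and neighbouring directions were recomputed without the members in dense windows and without the 5 members with the most DMRs alone, and the directions at shared sites under no alternative. No paired analysis was possible because each condition has 1 library and no test was made.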

Other observations

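The identifiers of the members differed from those of shorter genes. MSU locus identifiers were first numbered in steps of 10, and 36 of the 70 members, 51.4%, had an identifier that does not end in 0, against 28.8% of genes of 12 to 18 kb, 4.05% of genes under 3 kb and 5.52% of all listed genes. The 5 members with the most DMRs include 4 of these, LOC_Os04g47059, LOC_Os03g17634, LOC_Os01g48874 and LOC_Os06g23504. Whether the gene models behind such identifiers differ from others was not tested.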
